A study of Homo sapiens with 6 samples.

Results

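The genes described are 10 stem and progenitor markers and regulators, taken by name from the 14821 genes of a count table of F36P cells. They are the surface markers and receptors CD34 and KIT, the angiopoietin pair ANGPT1 and TEK, the RNA-binding protein MSI2, and the transcription factors GATA2, GFI1, SOX4, MYB and RUNX1. All 10 were in the table and all 10 passed the filter on low counts, as did 14203 genes in all. F36P is a human cell line, long established, from acute erythroid leukaemia. Both groups carried the retroviral backbone MSCV-PIG and had been kept in 1 µg/ml puromycin for 4 days. The backbone was empty in the 3 vector libraries (genotype labelled WT), and in the 3 ERG libraries (genotype labelled ERG overexpression) the construct was MSCV-PIG-AM-ERG. MSCV is the murine stem cell virus, whose own promoter drives the insert. The sample titles number the libraries of each group as biological replicates 1 to 3. The sources used here do not say whether the selected cells were pools or clones, nor from which cultures these replicates came. Errors and p-values therefore cover only the spread among these libraries, which may be technical. The submitters' question was how ERG inhibits erythroid differentiation.

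Blood stem and progenitor cells carry CD34, a sialomucin, on their surface and need stem cell factor, which signals through the receptor tyrosine kinase KIT. TEK, also called TIE2, is a receptor tyrosine kinase of stem cells and endothelium, and angiopoietin 1, the product of ANGPT1, is its activating ligand. GATA2 and RUNX1 act with ERG, FLI1, TAL1, LYL1 and LMO2 at shared enhancers of progenitor cells. During red cell formation GATA1 displaces GATA2 from chromatin, and MYB keeps progenitors dividing. KIT and GATA2 are also expressed in mast cells, and CD34 and TEK in endothelium.

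ERG replicates 1 and 2 differed from each other by 2.20 chi-square units per degree of freedom over 14575 genes, and every other pair of libraries by 21.6 to 86.9. The libraries also fell into a pair of sets that cut across the groups, with ERG replicates 1 and 2 and vector replicate 1 in set A and ERG replicate 3 and vector replicates 2 and 3 in set B. The sets were drawn from the data, so that the only vector library of set A is replicate 1 and the only ERG library of set B is replicate 3. The summed level of 11 erythroid markers, among them the globins and GATA1, was 10983 to 18801 CPM in vector libraries and 3660 to 6687 CPM in ERG libraries, where CPM are counts scaled to the library size after TMM normalisation. Such a sum is carried by its most abundant genes and does not show that each marker differed. The groups overlapped for GATA1. Of 7 lymphoid markers 2 were in the table, and CD3E, CD3D, MS4A1 and NCAM1 were among those not analysed here.

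Promoters of 4 members with large differences are shown for the letters GGAA, the core of the sites that ETS factors such as ERG bind. Each runs 5′ to 3′ toward the start of the gene on its own strand, within the 250 bases before the first start that RefSeq gives (GRCh38.p14), with GGAA and its reverse complement TTCC in capitals. The KIT stretch is chr4:54657707-54657917 on the plus strand, GFI1 chr1:92486926-92487175 on the minus strand, GATA2 chr3:128493202-128493451 on the minus strand and MSI2 chr17:57255601-57255850 on the plus strand. The KIT stretch ends 39 bases short of the RefSeq start because GENCODE release 29 places an exon there. The windows of CD34 and SOX4 lie wholly inside annotated exons and are not printed, and that of ANGPT1 was not read.
KIT: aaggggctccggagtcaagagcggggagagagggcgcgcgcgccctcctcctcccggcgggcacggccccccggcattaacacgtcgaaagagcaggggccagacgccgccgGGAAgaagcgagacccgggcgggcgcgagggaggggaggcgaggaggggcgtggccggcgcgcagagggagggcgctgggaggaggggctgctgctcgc
GFI1: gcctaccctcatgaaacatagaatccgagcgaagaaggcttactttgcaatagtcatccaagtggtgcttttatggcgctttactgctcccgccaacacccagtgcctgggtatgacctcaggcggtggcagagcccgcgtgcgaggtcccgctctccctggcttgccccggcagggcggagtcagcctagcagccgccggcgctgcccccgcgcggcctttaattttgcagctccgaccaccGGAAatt
GATA2: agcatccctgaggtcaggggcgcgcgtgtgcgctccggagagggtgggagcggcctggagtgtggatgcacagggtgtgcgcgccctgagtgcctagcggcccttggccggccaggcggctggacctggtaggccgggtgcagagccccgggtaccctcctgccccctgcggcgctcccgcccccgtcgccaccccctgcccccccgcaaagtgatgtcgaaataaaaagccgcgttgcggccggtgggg
MSI2: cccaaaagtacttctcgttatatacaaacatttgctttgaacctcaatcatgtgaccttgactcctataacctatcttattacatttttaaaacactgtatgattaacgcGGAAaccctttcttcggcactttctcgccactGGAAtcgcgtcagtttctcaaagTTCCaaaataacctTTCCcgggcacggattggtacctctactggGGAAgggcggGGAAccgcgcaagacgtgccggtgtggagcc

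Over the whole 250 bases, MSI2 had 6 GGAA cores on either strand, KIT and GFI1 had 1 each and GATA2 had 0. SOX4 and RUNX1 also had 6, TEK 3, CD34 2 and MYB 0. The windows of SOX4, RUNX1 and CD34 lie inside the gene spans that GENCODE gives, so their counts are not of bases before the GENCODE start. At least 1 core was thus in 7 of the 9 members read, against 92.8% of 27305 promoters, whose median was 3. The 6-letter ETS forms CGGAAG and AGGAAG, each of which contains GGAA, were in 0 and 1 of the 9 (SOX4), against 16.7% and 28.6% of all promoters. The GATA motifs AGATAA and TGATAA and the RUNX motif TGTGGT were in 0 of the 9, against 9.40%, 6.92% and 11.05%. The E-box letters CAGCTG were in SOX4 and CAGATG in CD34, against 13.8% and 12.2%. All motifs were searched on both strands, and a match is a string of letters, not a measured site.

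With ERG, CD34, KIT, ANGPT1, TEK, MSI2, GATA2, GFI1 and SOX4 stood between 1.95-fold and 5.16-fold above vector, RUNX1 1.49-fold above it, and MYB below it at 0.836 of the vector level. The first 8 of these had an edgeR adjusted p under 0.05, as had 2.2% of all tested genes in either direction, and none of the 10 was called lower. The 3 ERG libraries lay above the 3 vector libraries for 9 members and below them for MYB, where 12.3% and 9.54% of all tested genes did so. The median log2 fold change of the 10 was 1.08, and that of all tested genes was -0.010. The members were chosen by name with the log2 fold changes and calls of this very contrast in view, so their counts and folds describe them and support nothing. DESeq2, the replicate number as a block and the library set as a term called 8, 8 and 9 of the 10, where they called 7.09%, 6.37% and 13.2% of all genes. In edgeR none of the 10 was called without either of ERG replicates 1 and 2, where 0 of all 14203 genes were called. Without vector replicate 2 none of the 10 was called, beside 19 of all genes. Without vector replicate 3 KIT alone was called, beside 51 of all genes.

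**Figure D1:**
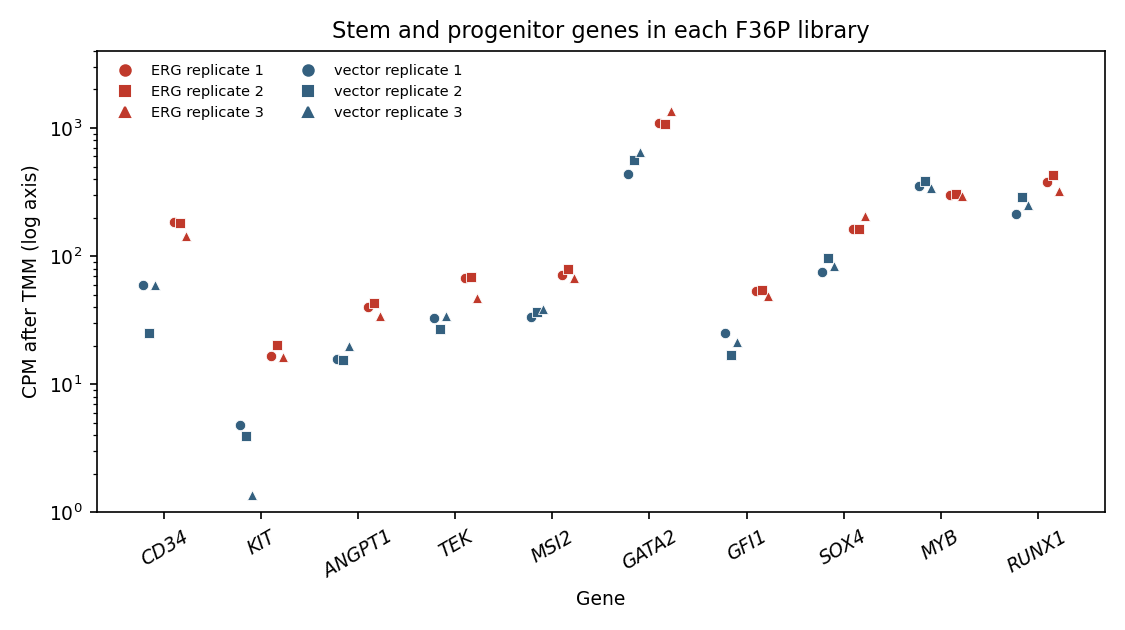
Level of each of the 10 genes in every library, in CPM after TMM normalisation on a log axis, with vector libraries left and ERG libraries right for each gene and the replicate number given by the symbol. The ERG points lie above the vector points for every gene but MYB, and KIT in vector replicate 3 is the lowest point at 1.37 CPM.

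CD34 was measured at 184, 182 and 143 CPM in ERG replicates 1, 2 and 3 and at 59.2, 25.1 and 59.7 CPM in vector replicates 1, 2 and 3. The lowest ERG library was above the highest vector library, and vector replicate 2 stood well under the other vector libraries. The means were 170 ± 23.1 and 48.0 ± 19.8 CPM (SD, n = 3 each), a 3.54-fold difference (log2 1.82, SE 0.32). Its position is chromosome 1, 207880972 to 207911402 (ENSG00000174059; GENCODE release 29 on hg38, as for all genes here).

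KIT, on chromosome 4 from 54657918 to 54740715, was at 16.5, 20.2 and 16.3 CPM with ERG and at 4.84, 3.96 and 1.37 CPM with vector. It had the largest fold of the 10, 5.16-fold (log2 2.37, SE 0.41), and the fewest counts. Vector replicate 3 held 14 counts, which gives an exact Poisson 95% interval of 0.749 to 2.30 CPM for counting error only, below the other vector libraries with 55 and 52 counts. The ERG libraries held 211, 294 and 240 counts. The coefficient of variation of KIT was 53.2% over the vector libraries and 12.3% over the ERG libraries, and that of CD34 was 41.3% and 13.6%. These vector spreads were wider than those of the other 8 members, which lay between 6.998% (MSI2) and 19.7% (GFI1).

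ANGPT1, the ligand, was at 40.4, 43.0 and 34.2 CPM in ERG libraries and at 15.7, 15.5 and 19.96 CPM in vector libraries. Its level was 2.30-fold higher with ERG (39.2 ± 4.55 against 17.0 ± 2.54 CPM, log2 1.20, SE 0.17). TEK, its receptor on chromosome 9 from 27109141 to 27230175, was at 67.8, 68.5 and 47.0 CPM with ERG and 33.0, 27.0 and 33.9 CPM with vector. The ERG library of set B was the lowest of the 3 for both genes and still above every vector library. TEK was 1.95-fold higher (log2 0.97, SE 0.19) and lay closest to the threshold among those called (edgeR adjusted p = 0.0496). It was called in 5 of 14 alternative analyses and its log2 difference lay between 0.84 and 1.13 in them. Per length of exon, TEK RNA exceeded ANGPT1 RNA in each library, by a ratio of 2.04 to 2.49 with ERG and 2.52 to 3.13 with vector.

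MSI2, or Musashi 2, binds messenger RNA and regulates its translation in stem cells. Its gene on chromosome 17 (57255851 to 57684685) gave 71.1, 78.8 and 67.1 CPM with ERG and 33.4, 36.6 and 38.5 CPM with vector. The libraries within each group lay close together, with coefficients of variation of 8.26% and 6.998%, and the groups did not overlap. The difference was 2.00-fold (log2 1.00, SE 0.13), with the smallest SE among the 8 genes called.

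GATA2, on chromosome 3 from 128479427 to 128493185, was the most abundant of the 10, at 1102, 1081 and 1348 CPM with ERG and 437, 559 and 650 CPM with vector. ERG replicate 3 was the highest ERG library and vector replicate 3 the highest vector library, and the groups stood apart by 2.15-fold (log2 1.10, SE 0.20). SOX4, a factor of the SOX family on chromosome 6 (21592768 to 21598619), was at 161, 164 and 205 CPM with ERG and 75.4, 97.0 and 83.6 CPM with vector. It shared with GATA2 a highest ERG level in replicate 3 and a lowest vector level in replicate 1, and was 2.07-fold higher (log2 1.05, SE 0.16). GFI1, a zinc finger repressor of stem cells and granulocyte precursors (chromosome 1, 92474762 to 92486876), was at 53.1, 54.0 and 48.5 CPM with ERG and 25.4, 17.0 and 21.3 CPM with vector, 2.44-fold higher (log2 1.29, SE 0.18).

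RUNX1 and MYB were the 2 members without a call. RUNX1, the DNA-binding subunit of core-binding factor (chromosome 21, 34787801 to 36004667), was at 377, 426 and 324 CPM with ERG and 214, 291 and 252 CPM with vector. The groups did not overlap, though ERG replicate 3 lay close above vector replicate 2, and the log2 difference of 0.57 (SE 0.17) had an edgeR adjusted p of 0.161. MYB (chromosome 6, 135181315 to 135219173) was at 299, 305 and 294 CPM with ERG and 350, 387 and 338 CPM with vector. All 3 ERG libraries were lower, yet the log2 difference of -0.26 (SE 0.13, 95% interval -0.56 to 0.04) did not pass (edgeR adjusted p = 0.383). MYB was called in none of the 14 alternatives and RUNX1 in 1, that with the library set as a term (log2 0.58, edgeR adjusted p = 0.0329).

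Within the library sets the 9 higher members had a positive difference in both. Their ERG libraries all lay above their vector libraries, so a positive sign in each set was fixed beforehand. In differences of log2 CPM (prior count 2), KIT was 1.88 higher with ERG in set A and 2.71 in set B, CD34 1.63 and 1.88, GFI1 1.07 and 1.34, and SOX4 1.11 and 1.18. GATA2 was 1.32 and 1.16 higher, ANGPT1 1.40 and 0.95, MSI2 1.16 and 0.84, TEK 1.04 and 0.63, and MYB lay at -0.21 and -0.30. RUNX1 stood 0.90 higher in set A and 0.26 in set B. An interaction term of ERG with the set gave RUNX1 an edgeR adjusted p of 0.388 (unadjusted 0.0085) and the other 9 members adjusted p-values from 0.573 to 0.955. Across all 14203 genes it called 0 in edgeR, with 1446 (10.2%) at an unadjusted p under 0.05, so no difference between the sets was detectable for these genes with 1 library in an arm.

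**Figure D2:**
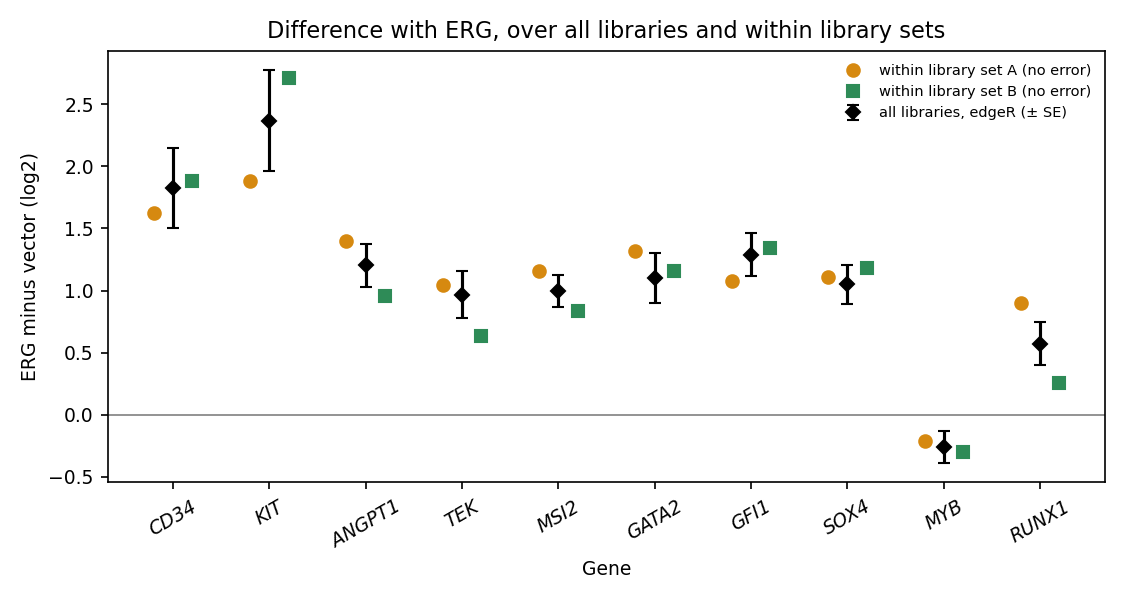
Difference between ERG and vector libraries on the log2 scale for each of the 10 genes, from the edgeR fit over all 6 libraries (diamonds, bars ± SE) and within library sets A (circles) and B (squares), which have no error. KIT and CD34 lie highest, RUNX1 has 0.90 in set A against 0.26 in set B, and MYB alone lies under 0.

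Levels of different genes were compared per kb of exon, taking the union of all GENCODE exons of each gene. This length ranges from 3.30 kb for GFI1 to 21.5 kb for MSI2. It is never shorter than a single transcript and can be much longer, so levels of genes with many isoforms are understated. In vector libraries GATA2 stood first at 123 ± 24.0 CPM per kb (SD, n = 3), above 97.6% of the 12814 tested genes with a length, and MYB second at 65.2 ± 4.64. RUNX1 (16.2 ± 2.47) and SOX4 (14.6 ± 1.86) overlapped in range, as did TEK (6.51 ± 0.782), GFI1 (6.43 ± 1.27) and CD34 (5.21 ± 2.15), and CD34 with ANGPT1 (2.39 ± 0.356). MSI2 (1.68 ± 0.118) and KIT (0.609 ± 0.324) came last and did not overlap each other or ANGPT1, and KIT was above only 9.20% of those genes. In ERG libraries GATA2 was at 264 ± 33.2 CPM per kb and MYB at 54.5 ± 1.02, both again first and second. SOX4 (30.2 ± 4.16) stood above RUNX1 (24.1 ± 3.27) there without overlap. That order depends on the exon lengths used (5.85 kb for SOX4, 15.6 kb for RUNX1). In CPM, not scaled to length, RUNX1 was above SOX4 in every library. Per kb, CD34 followed at 18.4 ± 2.50 in ERG libraries, overlapping GFI1 (15.7 ± 0.893). The lower end held TEK, ANGPT1, MSI2 and KIT, with MSI2 (3.37 ± 0.278) and KIT (3.17 ± 0.390) overlapping. KIT then stood above 31.5% of genes and CD34 above 78.7%, from 44.2% in vector libraries.

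**Figure D3:**
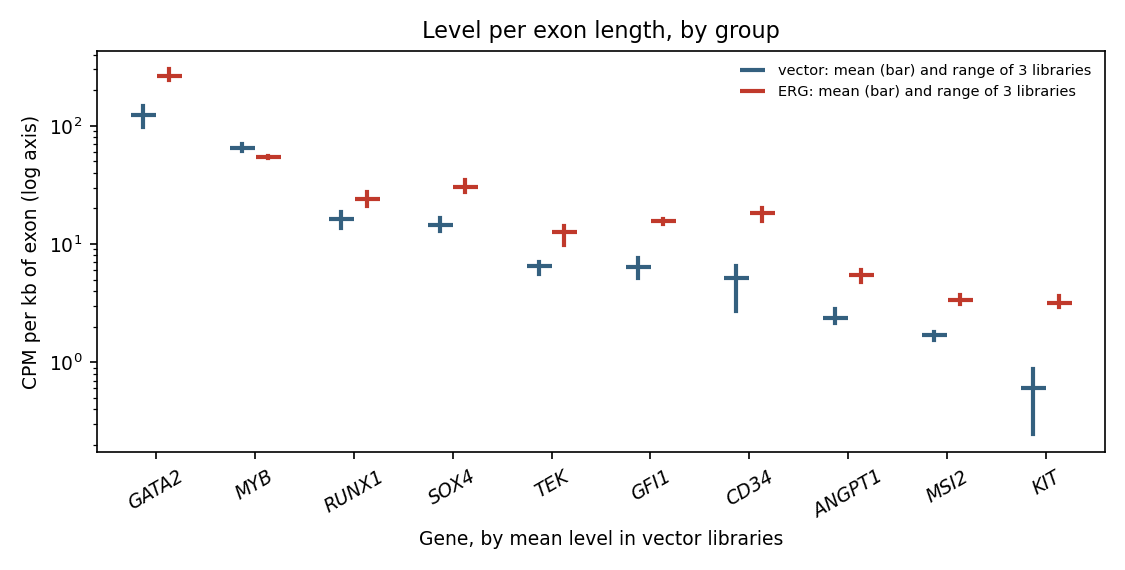
Level per kb of exon of the 10 genes on a log axis, ordered by the mean of the vector libraries, with a bar for the mean and a line for the range of the 3 libraries of a group. GATA2 (123 and 264 CPM per kb) and MYB (65.2 and 54.5) are highest in both groups, and KIT lies lowest in both (0.609 and 3.17).

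Ratios within a library set members against relatives. GATA1, the erythroid GATA factor on the X chromosome (48786554 to 48794311), was at 198, 191 and 164 CPM with ERG and 284, 192 and 194 CPM with vector, with overlapping groups (log2 -0.28, edgeR adjusted p = 0.518). With the library set as a term GATA1 was called lower (log2 -0.39, edgeR adjusted p = 0.0246), in a fit that called 13.2% of all tested genes. Per kb of exon, the ratio of GATA2 to GATA1 RNA was 1.88, 1.91 and 2.76 in ERG libraries and 0.517, 0.980 and 1.13 in vector libraries. On this scale GATA2 RNA was the more abundant in every ERG library and in 1 of the 3 vector libraries. The order in vector libraries depends on the exon lengths used (4.46 kb for GATA2, 1.5 kb for GATA1). In CPM, not scaled to length, GATA2 was above GATA1 in every library. GFI1B, the relative of GFI1 that acts in red cell and platelet precursors, was at 223, 219 and 156 CPM with ERG and 265, 189 and 187 CPM with vector (log2 -0.10, edgeR adjusted p = 0.835; the pair was chosen once the values were known). The ratio of GFI1 to GFI1B was 0.440, 0.456 and 0.575 with ERG and 0.177, 0.166 and 0.211 with vector, under 1 in all 6 libraries. These ratios rest on the contrast that chose GATA2 and GFI1 and are descriptions.

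**Figure D4:**
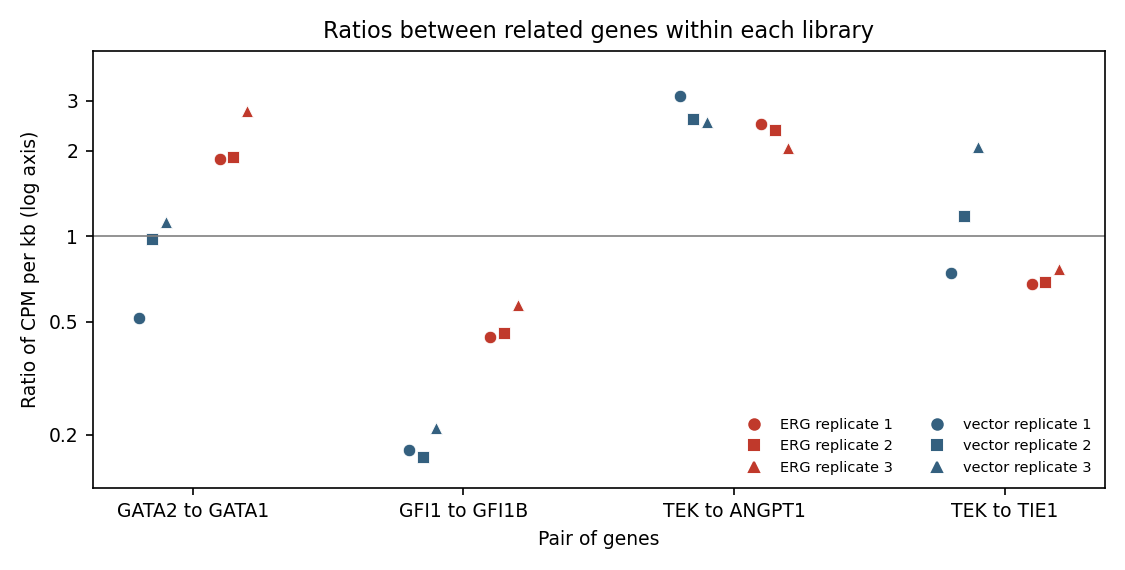
Ratio of CPM per kb between related genes within each library, on a log axis with a line at 1. GATA2 to GATA1 is 1.88 to 2.76 in ERG and 0.517 to 1.13 in vector libraries and GFI1 to GFI1B 0.440 to 0.575 against 0.166 to 0.211, while TEK to ANGPT1 (2.04 to 2.49 against 2.52 to 3.13) and TEK to TIE1 (0.680 to 0.769 against 0.744 to 2.07) lie lower or overlap.

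The rest of the progenitor programme was taken from 6 lists of related genes, of which 98 genes were tested. Of these 7 rose and 2 fell (edgeR adjusted p under 0.05), against 1.47% and 0.732% of all tested genes. The median log2 fold change of the 98 was 0.08. The counts of single lists below are to be read beside the same shares of 1.47% and 0.732%, and no test of a list was run. One of the 7 was ERG, the introduced gene itself, at 97.4, 103 and 104 CPM in ERG libraries and 28.1, 14.6 and 22.4 CPM in vector libraries (log2 2.23, SE 0.23, edgeR adjusted p = 0.011). The vector libraries thus already held ERG RNA, and reads of the cell's own gene and the insert cannot be separated. In edgeR 0 of the 98 and 0 of all 14203 genes were called without ERG replicate 1 or ERG replicate 2. At an unadjusted p under 0.05 there were 18 of the 98 each time, beside 1278 and 1256 of all genes. Without vector replicate 2 or 3 the calls were 1 each, ERG and IKZF2, beside 19 and 51 of all genes.

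The 13 tested progenitor surface genes had a median log2 fold change of 0.20. NOTCH1, a receptor of the Notch pathway picked with its value known, was at 46.3, 46.0 and 40.2 CPM with ERG and 8.89, 15.2 and 24.9 CPM with vector. Its groups did not overlap, but its log2 difference of 1.44 (SE 0.34) did not pass (edgeR adjusted p = 0.0839). ENG, a co-receptor of endothelium and stem cells picked with its value known, stood at 173 ± 19.1 CPM with ERG and 255 ± 48.6 CPM with vector and did not pass (edgeR adjusted p = 0.181). With the library set as a term both genes passed, NOTCH1 as higher and ENG as lower (edgeR adjusted p = 0.0068 for NOTCH1 and 0.0031 for ENG). That fit called 2 of the 13 higher and 2 lower, and 13.2% of all tested genes, and its p-values may be too small. Of the 24 listed surface genes 15 were in the count table. PROM1, THY1, FLT3, CXCR4 and PROCR, which mark stem and early progenitor cells, were among the 11 not tested here and had no row in that table.

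In the angiopoietin list 1 of 11 rose and none fell (median 0.61). ANGPT2, which competes with angiopoietin 1 for TEK, was at 68.7, 66.3 and 70.1 CPM with ERG and 45.2, 30.7 and 29.5 CPM with vector (log2 0.96, SE 0.18, edgeR adjusted p = 0.048). TIE1, the receptor that pairs with TEK, was picked with its value known and was at 139, 138 and 85.1 CPM against 61.8, 32.0 and 22.8 CPM. Its groups did not overlap, but its log2 difference of 1.63 (SE 0.38) did not pass (edgeR adjusted p = 0.0793). With the library set as a term it did (edgeR adjusted p = 3.1e-04), in a fit that called 3 of the 11 and 13.2% of all tested genes. PTPRB and ANGPT4 were not analysed here.

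Of 25 tested genes of KIT signalling, 1 fell and none rose (median 0.15), while the receptor itself had the largest fold of the 10 members. The gene that fell was PIK3CD, the leukocyte catalytic subunit of phosphoinositide 3-kinase, at 40.4, 36.4 and 30.3 CPM with ERG and 73.3, 75.3 and 81.1 CPM with vector (log2 -1.10, SE 0.15, edgeR adjusted p = 0.0188). SH2B3, the adaptor LNK that restrains KIT signalling, was also picked with its value known. It stood at 228 ± 63.2 CPM with ERG and 114 ± 25.1 CPM with vector and did not pass (edgeR adjusted p = 0.101). It passed with the library set as a term (edgeR adjusted p = 6.7e-04), in a fit that called 4 of the 25 and 13.2% of all tested genes. KITLG, the gene of stem cell factor, was not analysed here.

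Among 22 other progenitor transcription factors 4 rose and 1 fell (median 0.006). Besides ERG, the risers were IKZF2 or Helios (70.4 ± 9.78 against 26.1 ± 1.85 CPM, log2 1.43), the ETS factor FLI1 (129 ± 19.7 against 62.3 ± 10.9 CPM, log2 1.06) and, picked with its value known, the ETS repressor ETV6 (145 ± 15.5 against 80.0 ± 12.3 CPM, log2 0.86). LMO2, which bridges TAL1 and GATA factors, fell by 0.94 on the log2 scale, from 284 ± 30.8 to 148 ± 10.1 CPM. Of the factors that bind together in progenitors, ERG and FLI1 rose and GATA2 was higher, RUNX1 was at a log2 difference of 0.57 without a call, LMO2 fell, and TAL1 (352 ± 1.97 against 351 ± 24.9 CPM) and LYL1 (306 ± 23.6 against 301 ± 71.5 CPM) differed by 0.007 and 0.02 on the log2 scale without a call (edgeR adjusted p = 0.985 for TAL1 and 0.963 for LYL1). TAL1 and LYL1 were picked with their values known, as part of that group. Of the 35 listed factors 23 were in the count table. HOXA5, HOXA7, HOXA9, HOXA10, MEIS1 and HLF were among the 13 not tested here and had no row in that table.

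None of the 15 tested relatives and cofactors of the members passed in edgeR (lowest adjusted p = 0.357), with 0 at an unadjusted p under 0.05 and 0 in DESeq2. With the library set as a term 1 of them, GATA1, was called lower, and 6 had an unadjusted p under 0.05. In that fit 1869 of all 14203 genes were called and 4000 had an unadjusted p under 0.05. The highest in mean CPM, not scaled to length, were MYBL2, a MYB relative of dividing cells (271 ± 79.6 against 325 ± 68.4 CPM), and KDM1A, the histone demethylase recruited by GFI1 (222 ± 50.4 against 269 ± 51.4 CPM). Of 13 progenitor RNA-binding genes 1 rose (median 0.008), CELF2, a splicing regulator, from 128 ± 16.9 to 216 ± 12.6 CPM (log2 0.76, edgeR adjusted p = 0.048). MSI1, the relative of MSI2, was not analysed here.

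**Figure D5:**
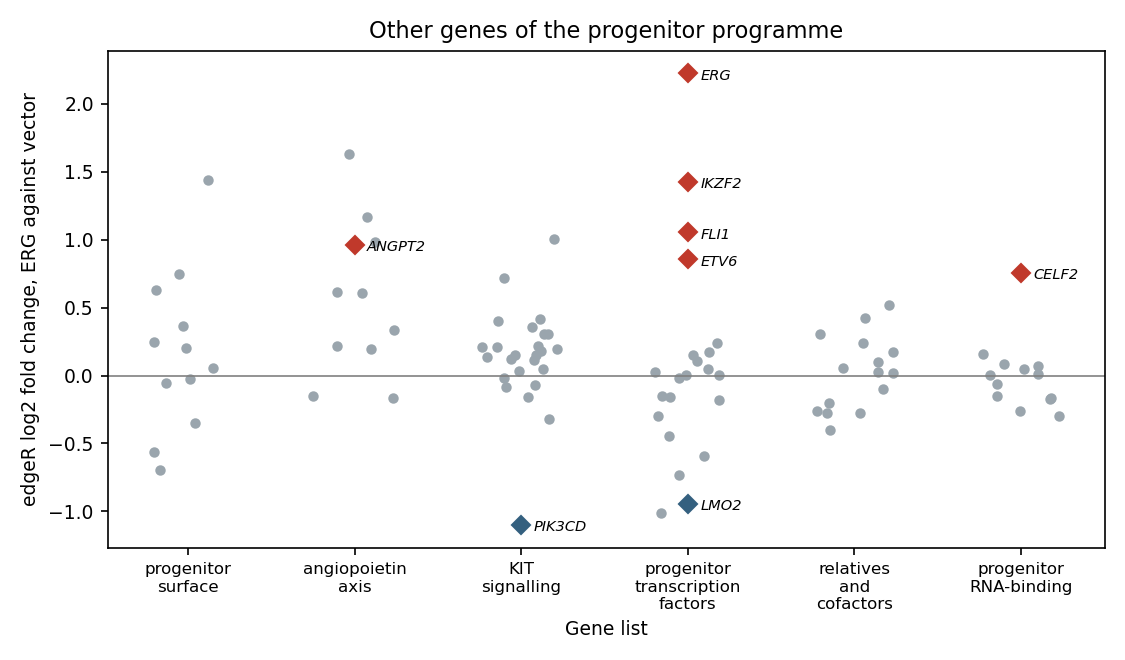
edgeR log2 fold change with ERG against vector for tested genes of the 6 lists, genes in 2 lists being drawn in both, with named diamonds for adjusted p under 0.05 and grey points for the rest (sideways spread is for legibility). The red diamonds rose, from CELF2 (0.76) to ERG (2.23), and LMO2 and PIK3CD (blue) fell.

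Summed mast cell and megakaryocyte markers also stood apart by group. The 5 mast cell markers CPA3, MS4A2, HDC, TPSAB1 and HPGDS summed to 1792 to 1861 CPM in ERG libraries and 581 to 907 CPM in vector libraries. The megakaryocyte markers, of which 5 of 6 were tested, summed to 1298 to 2392 against 536 to 1159 CPM. The groups overlapped for neither sum, but a sum can be carried by a single marker. ITGB3, a megakaryocyte marker picked with its value known, was at 570, 578 and 211 CPM with ERG and 43.2, 21.6 and 28.6 CPM with vector. The megakaryocyte sum therefore does not show that its other markers stood apart. Myeloid markers, 4 of 7 tested, ranged from 287 to 524 CPM with ERG and from 184 to 438 CPM with vector, with MPO, ELANE and CD14 not analysed here. Stromal and epithelial markers, 3 of 8 tested, summed to 4.35 to 5.42 against 6.63 to 11.2 CPM. In bulk libraries more cells of a type and more RNA per cell cannot be told apart, and the part of these markers in the members' differences was not tested.

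Each member's closest genes in pattern were found by the root mean square difference of centred log2 CPM over the 6 libraries, among 10072 other protein-coding genes. CD34 lay nearest to CD44, the hyaluronan receptor, at 0.11, and next to PLEKHG3 (0.13). KIT had the most distant neighbours, TMIGD2 at 0.30 and TPSD1 at 0.33, and TPSD1 belongs to the tryptase genes, whose near-identical copies make its counts uncertain. TEK lay nearest to TIMP3 (0.054) and GOLGA8O (0.076), ANGPT1 to ZNF792 (0.064) and PRICKLE1 (0.091), and MSI2 to AKAP13 (0.072) and SYTL4 (0.081). GOLGA8O has near-identical copies too. GATA2 had PPP1R13B and SLC18A2 at 0.15 each, and PPP1R13B was also the second nearest to SOX4 (0.11) after FZD2 (0.11). GFI1 lay nearest to PIK3CG (0.077) and CACNA2D3 (0.10), RUNX1 to LRRC8B (0.053) and RAD54L2 (0.060), and MYB to TRIM39 and VPS25 (0.030 each). Among the members themselves, ANGPT1 and MSI2 (0.14) and GATA2 and SOX4 (0.15) were closest, and KIT and MYB farthest apart (1.46).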

How the data were processed

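Polyadenylated RNA of 6 F36P libraries was sequenced, and per the submitters' processing notes reads were placed on hg38 and edgeR 3.32.1 was among the tools. The aligner, counting tool, strand setting and annotation are not given in the sources used here. The deposited table holds whole-number read counts per gene, although its name speaks of CPM, with totals of 10257141 to 14803031 per library. From its values, it had been limited to genes above about 1 CPM in 2 libraries (lowest second-highest CPM 1.01). Control columns were taken as vector, the only group besides ERG. 0 columns of per-sample values were left unused.

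Counts were fitted with edgeR 4.0.16 (R 4.3.3; TMM, quasi-likelihood test, two-sided) after removal of genes that reached 1 CPM in fewer than 3 libraries, with Benjamini-Hochberg adjustment over all 14203 genes left. The SE is the log2 fold change divided by the square root of F. The code was tested on simulated counts. DESeq2 1.42.0 and limma 3.58.1 (voom) served as alternatives.

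The 10 genes, the lists and the library sets were chosen with earlier results of these data known. All 10 members, ERG and GATA1 are named, with up to 4 genes per list past the threshold by size of change, or the 2 most abundant where none passed, and 2 nearest genes per member with a mean of at least 5 CPM, without readthrough or antisense transcripts, pseudogenes and unnamed loci. Other names are marked as picked with their values known. A gene that the rule takes is not reported here, though it counts in the totals. Promoters are RefSeq's on GRCh38.p14, where 9 of the 10 members were read. A planned display of GATA2 and GATA1 protein stretches was not made.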

Additional observations from a re-analysis of the deposited data

How the results depend on the processing

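Every member kept its sign in all 14 alternatives. The groups overlapped for none of the 10, so this was largely given beforehand and supports nothing. The calls did not hold in all alternatives. With all libraries kept separate, 7 members were called with RLE normalisation, limma-voom or at least 5 CPM, the one lost being TEK, 8 with DESeq2, no filter or the replicate number as a block, and 9 with the library set as a term. With ERG replicates 1 and 2 summed to 1 library, edgeR called 0 of 10 members, 0 higher and 0 lower listed genes and 0 of 14203 genes (9 members, 17 listed genes and 1277 genes at an unadjusted p under 0.05). Leaving out 1 library at a time gave 0 to 7 members, 0 to 9 listed genes higher and 0 to 3 lower, and 0 to 441 genes in all against 313. The calls of all members were lost without vector replicate 2 and without either of ERG replicates 1 and 2 (9, 9 and 8 members at an unadjusted p under 0.05). Those fits called 19, 0 and 0 of all 14203 genes. KIT alone was called without vector replicate 3, in a fit that called 51 of all genes. Over all alternatives the log2 fold change of CD34 lay between 1.51 and 2.01 and that of KIT between 2.01 and 2.69.

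The whole table gave 1006 calls with DESeq2, 905 with the replicate block and 1869 with the library set as a term. The listed genes gave 11, 12 and 13 higher and 5, 6 and 8 lower in those fits, against 7 and 2. Deviations from the group means correlated across genes by 0.63, -0.28 and 0.59 for the libraries numbered 1, 2 and 3. The pairs numbered 1 and 3 thus deviated alike and that numbered 2 did not, ERG replicate 2 being closest to vector replicate 1 (0.59), and the labels do not say that a number marks a shared culture. Because ERG replicates 1 and 2 are so alike and the sets were drawn from these libraries, p-values with the set as a term may be too small. The interaction of ERG and set called 0 genes with either filter. Depth limits KIT most, with 14 counts in 1 library.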
